A study of Arabidopsis thaliana with 24 samples.

Results

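The 146 rows of the deposited count table whose identifiers begin with ATMG are the loci of the mitochondrial genome of Arabidopsis thaliana, out of 33597 rows in all. They were taken by that prefix alone, and no measured value entered the choice. RNA was measured in seeds dissected at 15, 17 and 21 days after flowering (DAF) from 3 wild types, Wassilewskija (Ws), Landsberg erecta (Ler) and Columbia 0 (Col-0), and from 5 mutants of seed maturation regulators. Each mutant was compared with the wild type of its own ecotype, which was Ws for lec1-1 and lec2-1, Ler for abi3-5 and abi3-1, and Col-0 for fus3-3. The series design calls lec1-1, abi3-5 and fus3-3 seeds desiccation intolerant and lec2-1, abi3-1 and the wild types tolerant, whereas the sample labels call abi3-1 intolerant, and the design's word was used here. One library of pooled RNA stands for each genotype and day, so the days serve as the repeats of a genotype, and every SD below is over days. No allele is given a molecular description in the labels.

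Plant mitochondria keep a small genome that encodes a minority of the subunits of the respiratory complexes and of the ATP synthase, some ribosomal proteins, cytochrome c maturation factors and the organelle's own ribosomal and transfer RNAs. The other mitochondrial proteins are encoded in the nucleus and imported. In plant mitochondria a poly(A) tail marks RNA for decay, and the amplification kit used for these libraries primes its first cDNA strand from poly(A), so counts of mitochondrial rows here are not a plain measure of mitochondrial transcript abundance. The organelle is of interest in seeds because respiration is wound down while the embryo dries and resumes on imbibition.

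Much of the mitochondrial sequence also exists in the nucleus, and the effect of this on the counts was not tested. In the RefSeq assembly TAIR10.1, 70.6% of the 50-base words of the 367808-base mitochondrial sequence occurred in the nuclear chromosomes, 70.4% on chromosome 2, where genes made mostly of such words lie between positions 3239657 and 3507323. Of 36 RefSeq mitochondrial genes, 25 shared 71.1 to 100% of their words with the nucleus, among them the genes of apocytochrome b (cob) and cytochrome c oxidase subunit 3 (cox3). The other 11 shared 0 to 34.6%, among them the ribosomal RNA genes rrn26, rrn18 and rrn5 and cox1, which encodes cytochrome c oxidase subunit 1. The first 100 coding bases of cox3 and cox1 are shown as an example of each kind, with the start codon in capitals. The cox3 stretch (MT:330674-330773, minus strand) is repeated base for base at chr2:3312552-3312651, minus strand, inside the nuclear gene AT2G07687, while the cox1 stretch (MT:116246-116345, minus strand) occurs at 1 place in the genome.
mitochondrial cox3: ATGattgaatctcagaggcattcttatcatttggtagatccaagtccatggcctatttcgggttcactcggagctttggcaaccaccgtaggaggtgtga
nuclear copy of cox3: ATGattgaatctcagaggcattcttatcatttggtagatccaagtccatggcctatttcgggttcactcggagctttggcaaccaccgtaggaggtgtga
mitochondrial cox1: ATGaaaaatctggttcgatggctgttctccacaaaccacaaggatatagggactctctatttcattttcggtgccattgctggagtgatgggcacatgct

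The ATMG identifiers are not paired with gene names in the count table, and the RefSeq annotation names 45 of the 146 only as the closest relative of a chromosome 2 gene. These 45 rows, which include ATMG00730 (cytochrome c oxidase subunit 3), ATMG00220 (apocytochrome b), ATMG00990 (NADH dehydrogenase 3) and ATMG01190 (ATP synthase subunit 1), held 51 counts in all 23 distinct libraries together. Of them 33 had no count at all, and the highest, ATMG01090 (an ATP synthase subunit 9 relative), had 15. ATMG00730, the row of the repeated cox3 sequence above, had 1 count, and its chromosome 2 relative AT2G07687 had 0. The 101 other rows held 79080 of the 79131 mitochondrial counts, or 99.94%, with 71184 of them in 2 rows. Of these 101 rows 58 had no count either. The 129 rows of the table that lie in the nuclear copy summed to 776 counts, 0.981% of the mitochondrial sum, with 202 in AT2G07698, the relative of ATMG01190. How reads with several matches were counted is not given in the sources used here and its part in the empty rows was not tested. The mitochondrial sequence of the authors' TAIR10 build may also differ from that of TAIR10.1.

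**Figure D1:**
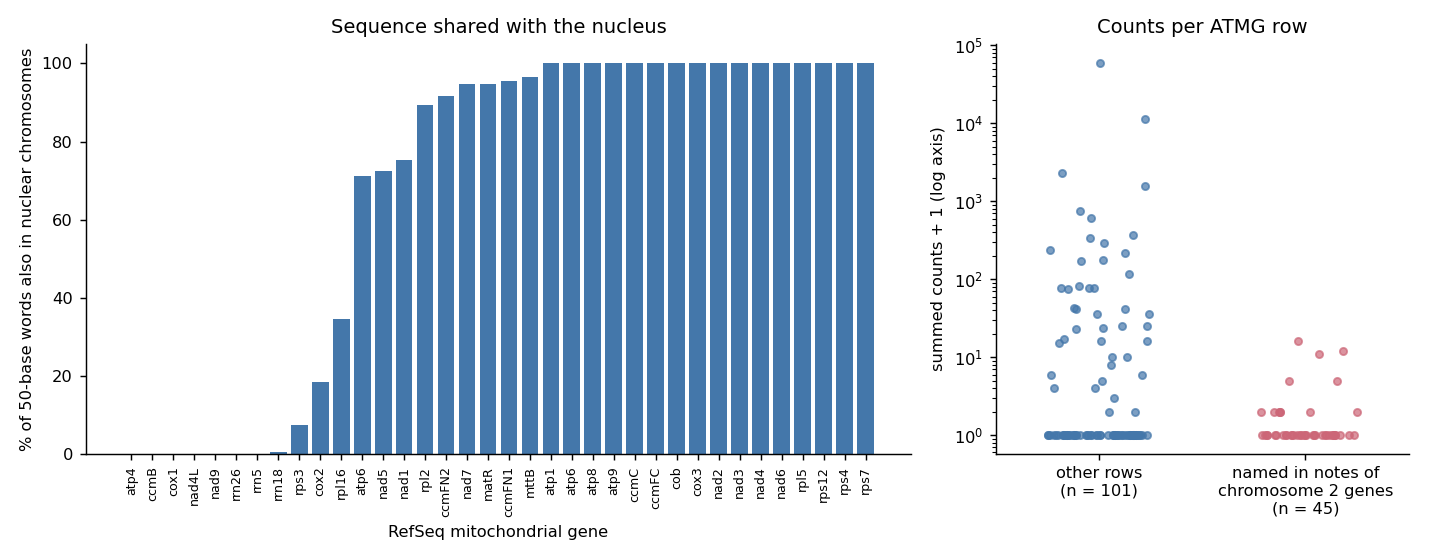
Left, share of the 50-base words of each RefSeq mitochondrial gene that also occur in the nuclear chromosomes; 25 of 36 genes lie at 71.1% or more. Right, summed counts over 23 libraries plus 1, on a log axis, for the 45 rows named in notes of chromosome 2 genes, none above 15 counts, and for the 101 other rows.

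Library totals ran from 1670355 to 6531673 counts and mitochondrial sums from 466 counts (abi3-1 at 17 DAF) to 11984 (fus3-3 at 21 DAF). The values of lec2-1 at 15 and at 17 DAF were the same in every row and entered once, with a day halfway, which leaves 2 libraries of lec2-1. The Col-0 libraries go against their labels in storage protein and seed coat genes. Seed storage protein genes, whose products fill the maturing embryo, took 58.7, 18.5 and 62.4% of the counts of Col-0 at 15, 17 and 21 DAF, but 62.5, 54.7 and 15.0% in Ws and 62.3, 57.5 and 31.3% in Ler. The 5 seed coat markers took 0.0225, 0.0020 and 0.0193% in Col-0 at these days. They took 0.0063, 0.0054 and 0.00023% in Ws and 0.0050, 0.0027 and 0.00065% in Ler. Fits and make-up counts that rest on the days of Col-0 are therefore given also with its 17 and 21 DAF libraries exchanged. Ratios of fus3-3 to Col-0 by day keep the labels. The tissue label was checked on marker lists: the 13 storage protein genes took 7.45 to 62.5% of a library, and the 4 silique wall markers at most 0.00110%. The 4 nuclear ribosomal RNA rows had at most 1 count in a library.

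Of the 146 rows, 91 had no count in any library, 20 had 1 to 9 counts in all, and 18 passed the filter on low counts (filterByExpr, minimum count 10). The counts were concentrated in very few rows. ATMG00020 held 59977 counts, 75.8% of the mitochondrial sum, and ATMG01390 held 11207, 14.2%. After them came ATMG01360 with 2318, ATMG00090 with 1561, ATMG01380 with 744, ATMG00080 with 602, ATMG00690 with 364, ATMG00030 with 332, ATMG00070 with 292, ATMG00160 with 233, ATMG01370 with 214 and ATMG01170 with 173. These 12 rows together held 98.6% of the sum. The 6 further rows that passed the filter (ATMG00660, ATMG00060, ATMG00640, ATMG00110, ATMG00670 and ATMG01130) held 76 to 169 counts each. No row lengths were used, so these are counts per row and not levels per length, and no product is given to these 18 rows because neither the count table nor the annotation used here names one.

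The mitochondrial share of a library was small everywhere, from 0.0195 to 0.347% of its counts. In Ws it was 0.0636% at 15 DAF, 0.0509% at 17 and 0.126% at 21, against 0.132, 0.136 and 0.219% in lec1-1. Every lec1-1 library lay above every Ws library, by 1.74 to 2.66 times at the same day. In fus3-3 the share was 0.165, 0.0909 and 0.347%, against 0.0791, 0.0836 and 0.0755% in Col-0. The fus3-3 libraries also lay above all of Col-0, but by only 1.09 times at 17 DAF and by 4.60 times at 21 DAF. By exact 95% binomial intervals, which cover counting error only, fus3-3 at 21 DAF had 0.341 to 0.354%. The closest libraries were less clearly apart: lec1-1 at 15 DAF (0.128 to 0.135%) overlapped Ws at 21 DAF (0.122 to 0.130%), and fus3-3 at 17 DAF (0.0886 to 0.0932%) lay just above Col-0 at 17 DAF (0.0793 to 0.0881%).

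The remaining mutants overlapped their wild types. The lec2-1 library of 15 and 17 DAF had 0.0625% and that of 21 DAF 0.118%, within the range of Ws. In Ler the share was 0.0469% at 15 DAF, 0.144% at 17 and 0.0439% at 21. The abi3-5 libraries had 0.0922, 0.0461 and 0.0684%, and the abi3-1 libraries 0.0575, 0.0195 and 0.103%. Ler at 17 DAF stood above both other Ler libraries, and at that day abi3-5 had 0.320 times and abi3-1 0.135 times its share. At 15 and 21 DAF abi3-5 had 1.97 and 1.56 times the share of Ler. As means over days the shares were 0.0800% ± 0.0400 (SD, n = 3) in Ws, 0.162% ± 0.0493 (n = 3) in lec1-1, 0.0904% ± 0.0395 (n = 2) in lec2-1, 0.0783% ± 0.0570 (n = 3) in Ler, 0.0689% ± 0.0231 (n = 3) in abi3-5, 0.0600% ± 0.0418 (n = 3) in abi3-1, 0.0794% ± 0.00404 (n = 3) in Col-0 and 0.201% ± 0.132 (n = 3) in fus3-3. No test was made on these shares, because they are sums over rows chosen together.

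The higher shares of lec1-1 and fus3-3 were smaller or gone with other denominators. Storage protein genes took 7.45 to 14.3% of the lec1-1 counts and 15.0 to 62.5% of the Ws counts, with abi3-5 at 15.4 to 23.8% and Ler at 31.3 to 62.3%. With TMM scaling, which sets most genes level between libraries, the mitochondrial sum was 1095 ± 170 counts per 1000000 scaled counts (CPM; SD, n = 3) in Ws and 1005 ± 283 (n = 3) in lec1-1, and the ratio of lec1-1 to Ws was 0.644, 1.02 and 1.12 at 15, 17 and 21 DAF. In fus3-3 it was 1341 ± 948 and in Col-0 1179 ± 294 (n = 3 each), with ratios of 0.792, 0.730 and 1.68 by day and of 1.14 between the means. With storage proteins left out of the denominator and days as labelled, the fus3-3 share was above that of Col-0 by 1.10, 1.05 and 1.92 times. It was 0.2098, 0.1079 and 0.3855% in fus3-3 and 0.1914, 0.1025 and 0.201% in Col-0 at 15, 17 and 21 DAF. With the Col-0 libraries exchanged, fus3-3 would lie below Col-0 at 17 DAF and above it at 21 DAF. The lec1-1 share was 0.900, 1.41 and 1.60 times that of Ws. With TMM scaling every abi3-5 to Ler ratio was under 1, at 0.823, 0.0913 and 0.624 by day. With storage proteins left out the abi3-5 to Ler ratios were 0.920, 0.179 and 1.27. Plastid rows (ATCG), the other organelle genome measured in the same way, took 1.04 to 1.48% of the lec1-1 counts and 0.0305 to 0.0499% of the Ws counts. Plastid counts were thus 6.75 to 8.09 times the mitochondrial counts in lec1-1 and 0.397 to 0.772 times in Ws. In fus3-3 this ratio was 2.66 to 4.77 and in Col-0 0.864 to 1.45.

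**Figure D2:**
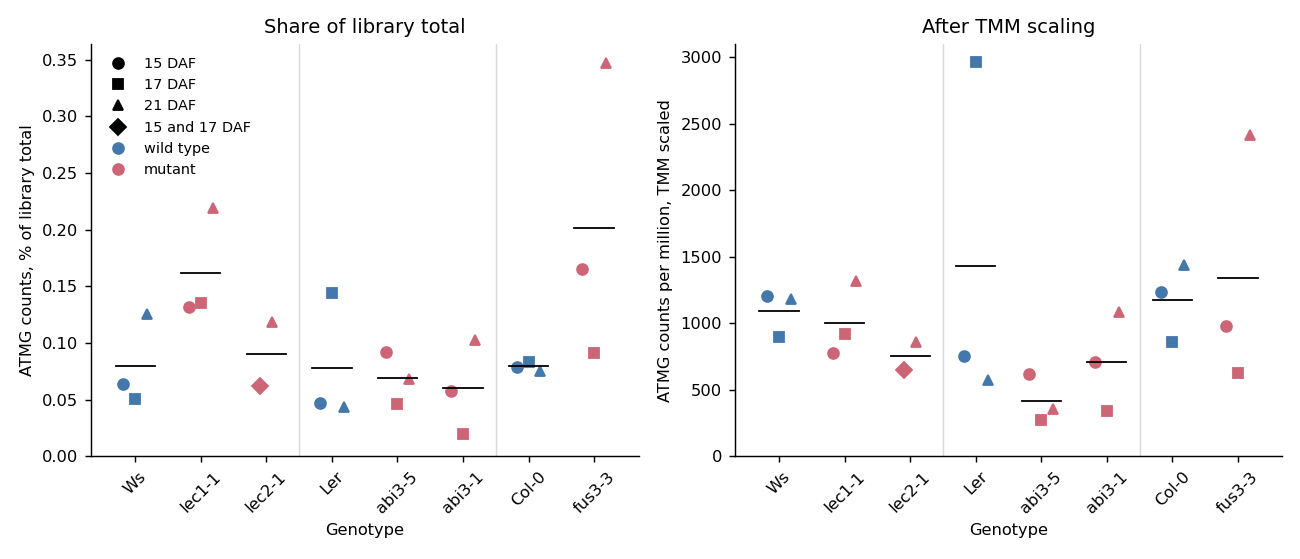
Sum of the ATMG counts in each of 23 libraries, as % of the library total (left) and as TMM-scaled CPM (right), by genotype and DAF; lines are means over days. All lec1-1 libraries lie above all Ws libraries on the left (0.132 to 0.219% against 0.0509 to 0.126%) and the groups overlap on the right.

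The make-up of the mitochondrial counts changed with day and genotype. ATMG00020 was the first row in 22 of 23 libraries, with a median of 77.9% of the mitochondrial counts, and ATMG01390 was second in 22. Ws at 21 DAF was the exception, with 41.0% in ATMG00020 and 45.6% in ATMG01390. From 15 to 21 DAF the part of ATMG00020 was lower in 7 of 8 genotypes, while those of ATMG01390, ATMG01360 and ATMG00090 were each higher in 7 of 8, and these counts were the same with the Col-0 libraries exchanged. ATMG00020 went from 84.5% to 57.8% in Ler, from 86.3% to 46.4% in abi3-1 and from 80.7% to 41.0% in Ws. ATMG01390 went from 10.2% to 23.0% in Ler and from 8.35% to 30.5% in abi3-1. In Col-0 the part of ATMG01390 was 7.64% at 15 DAF, 26.0% at 17 and 11.5% at 21. Storage protein genes, as given above, were low in the same libraries of Ws, Ler and Col-0 in which ATMG01390 was high, and their part in this was not tested.

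ATMG00020, ATMG01390 and ATMG01380 were set aside by name and not by rank, ATMG01380 being only 5th by summed counts. Among the rows other than these, ATMG01360 led in 16 libraries and ATMG00090 in 4. ATMG01360 took 0.973, 1.88 and 6.08% of the mitochondrial counts of Ws at 15, 17 and 21 DAF and 1.61, 0.796 and 6.07% of those of Ler. On the TMM scale its level was 11.7, 16.9 and 71.7 CPM in Ws, 12.2, 23.6 and 34.7 in Ler, and 6.49, 26.5 and 8.28 in Col-0. Ws and Ler had their highest value at 21 DAF and Col-0 at 17 DAF. In the fit of the 9 wild type libraries the log2 fold change of ATMG01360 at 21 against 15 DAF was 1.64 (SE 0.64) and did not pass, with an adjusted p of 0.246 by edgeR's quasi-likelihood test. With the Col-0 libraries exchanged it was 2.0, adjusted p 0.000807, where 35.6% of all genes were called, and with Ws and Ler alone 1.99, adjusted p 0.0137, where 21.4% were. Without Col-0 at 21 DAF it was 2.19 (adjusted p 0.035), and without Ws at 21 DAF 0.81 (adjusted p 0.623). In that fit 10 mitochondrial rows were tested, 9 had positive estimates, and edgeR called 0 and DESeq2 also 0, and 2 had an unadjusted p under 0.05. Over all 12487 genes tested edgeR likewise called 0%, and DESeq2 called 5.01%.

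In the make-up of abi3-5, ATMG00090 and ATMG00080 took larger parts than in Ler at every day, whereas ATMG00020 went both ways. ATMG00020 took 59.7, 55.8 and 63.7% of the mitochondrial counts of abi3-5 at 15, 17 and 21 DAF and 84.5, 86.5 and 57.8% of those of Ler. ATMG00090 took 6.56, 7.67 and 6.47% in abi3-5, and ATMG00080 3.69, 3.04 and 3.53%. In Ler, ATMG00090 took 1.30, 0.247 and 3.03% and ATMG00080 0.312, 0.110 and 0.953%. For both rows each abi3-5 library was above each Ler library. All rows other than ATMG00020, ATMG01390 and ATMG01380 summed to 18.7 to 24.3% of the mitochondrial counts in abi3-5, whereas Ler had 3.54 to 17.3%, fus3-3 5.52 to 10.6% and abi3-1 4.83 to 21.5%.

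**Figure D3:**
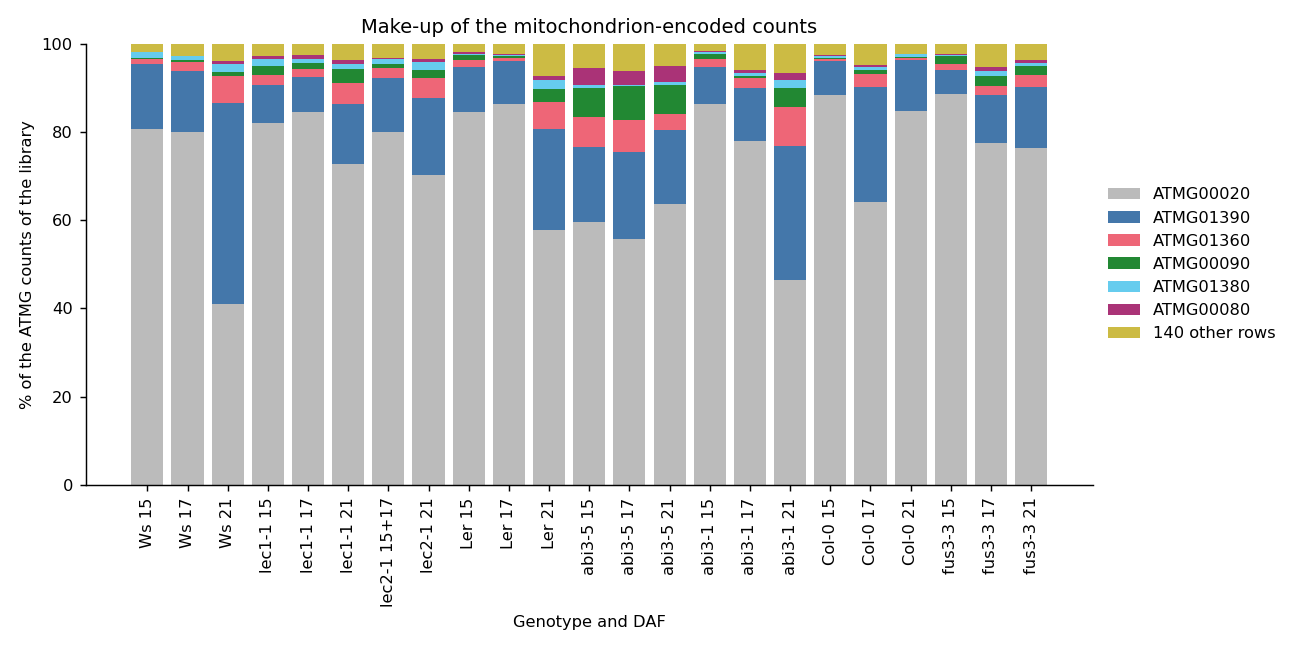
Part of the mitochondrial counts (% of the ATMG counts of the library) held by the 6 rows with the most counts and by the 140 other rows, in each library by genotype and DAF. ATMG00020 is smallest in Ws at 21 DAF (41.0%), where ATMG01390 reaches 45.6%, and ATMG00090 is largest in abi3-5 (6.47 to 7.67%).

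Each row was then tested in the fit over all libraries (edgeR quasi-likelihood, genotype and day terms, Benjamini-Hochberg adjusted p under 0.05 over 16085 genes). In abi3-5 against Ler 2 of 18 rows were called, both lower, where 7.99% of all genes tested were called. ATMG00020 had TMM-scaled levels of 638, 2564 and 331 CPM in Ler and of 371, 151 and 227 in abi3-5. The groups overlapped, with Ler at 21 DAF below abi3-5 at 15 DAF, and the Ler library of 17 DAF was far above the others. The log2 fold change was -2.37 (SE 0.70, adjusted p 0.0423). ATMG00030 had 1.18, 30.9 and 6.94 CPM in Ler and 0.849, 1.14 and 2.73 in abi3-5, on counts of 3, 38, 14 and 3, 5, 13. These groups overlapped, and the log2 fold change was -2.81 (SE 0.81, adjusted p 0.0376). Without Ler at 17 DAF the estimates were -0.76 (adjusted p 0.429) and -1.14 (adjusted p 0.391). Both calls were also lost, with larger estimates, without abi3-5 at 17 DAF (adjusted p 0.173 and 0.163), without abi3-5 at 21 DAF (0.155 and 0.106) and without the day term (0.0616 and 0.0756), and that of ATMG00030 without abi3-5 at 15 DAF (0.0584). Scaled by library totals the estimates were -0.78 (adjusted p 0.273) and -1.26 (adjusted p 0.19), while the median over all genes moved to 1.49. On that scale 3 other rows were called, all higher, where 49.9% of all genes were called: ATMG00080 (3.70, adjusted p 0.00346), ATMG00090 (2.93, adjusted p 0.00363) and ATMG01360 (2.01, adjusted p 0.0484).

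With TMM scaling the 2 rows with the largest positive estimates in abi3-5 did not pass. ATMG00080 had levels of 2.36, 3.26 and 5.45 CPM in Ler and 22.9, 8.22 and 12.6 in abi3-5, which do not overlap. Its log2 fold change was 2.31 (SE 0.83, adjusted p 0.0927 by edgeR), DESeq2 called it, with an estimate of 2.37 and an adjusted p of 0.0433, and so did edgeR with the Col-0 libraries exchanged (2.33, adjusted p 0.0424). Without abi3-5 at 15 DAF the estimate was 1.14 (adjusted p 0.396). ATMG00090 had 9.82, 7.32 and 17.4 CPM in Ler and 40.8, 20.8 and 23.1 in abi3-5, without overlap, and a log2 fold change of 1.52 (SE 0.60, adjusted p 0.124).

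In fus3-3 against Col-0 ATMG00090 alone was called, and it was higher, where 19% of all genes tested were called. Its level was 3.00, 6.79 and 4.14 CPM in Col-0 at 15, 17 and 21 DAF and 16.6, 14.4 and 46.2 in fus3-3, on counts of 6, 11, 9 and 154, 136, 229. All fus3-3 libraries were above all Col-0 libraries. The log2 fold change was 2.23 (SE 0.64, adjusted p 0.0222). Without Col-0 at 15 DAF it was 2.05 (adjusted p 0.0779), without Col-0 at 21 DAF 1.70 (adjusted p 0.13), and without fus3-3 at 17 DAF 2.26 (adjusted p 0.0653). The other 17 rows were not called. Their estimates ran down to -1.37 for ATMG00670, and ATMG00020, the bulk of the counts, had a log2 fold change of 0.16 (SE 0.64, adjusted p 0.895).

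In lec1-1 against Ws edgeR called 23.7% of all genes tested and 0 of 18 mitochondrial rows, with 2 at an unadjusted p under 0.05. DESeq2 called 27% of all genes and 1 of these rows. That row was ATMG00090. Its levels were 4.33, 5.19 and 10.5 CPM in Ws and 15.5, 12.2 and 41.5 in lec1-1, without overlap. The log2 fold change was 1.70 (SE 0.62, adjusted p 0.0513) by edgeR and 1.85 (adjusted p 0.0175) by DESeq2, and it was also called with RLE scaling, upper quartile scaling, library totals, no filter and the Col-0 libraries exchanged. ATMG00160 was the opposite case: every Ws library (4.33, 4.54 and 9.38 CPM) was above every lec1-1 library (3.10, 1.33 and 2.05), but the log2 fold change of -1.28 (SE 0.96, adjusted p 0.346) did not pass. The median estimate over the 18 rows was 0.01, beside 0.03 over all genes.

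In lec2-1 against Ws edgeR called 0 of 18 rows, where 1.88% of all genes were called; 0 rows had an unadjusted p under 0.05 and DESeq2 called 0. In abi3-1 against Ler edgeR and DESeq2 each called 0, where 0.00622% of all genes were called by edgeR, and 1 row had an unadjusted p under 0.05. That row was ATMG00020, at 610, 263 and 503 CPM in abi3-1, with a log2 fold change of -1.49 (SE 0.68, adjusted p 1). The comparison of abi3-1 uses the same Ler libraries as that of abi3-5.

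The contrast of intolerant with tolerant mutants averages lec1-1 minus lec2-1 and abi3-5 minus abi3-1. In it edgeR called 16.9% of all genes and 0 of 18 mitochondrial rows, with 3 at an unadjusted p under 0.05. DESeq2 called 21.1% of all genes and 2 of these rows. ATMG00080 had a log2 fold change of 1.73 (SE 0.61, adjusted p 0.0585), and ATMG00090 one of 1.18 (SE 0.45, adjusted p 0.0766), by edgeR. Without abi3-5 at 21 DAF both were called, at 2.10 (adjusted p 0.0357) and 1.46 (adjusted p 0.038), where 10.4% of all genes were. Both were likewise called without abi3-1 at 21 DAF, at 2.36 (adjusted p 0.0242) and 1.73 (adjusted p 0.0113), where 13.5% of all genes were. The abi3-1 library of 21 DAF had the highest abi3-1 levels of both rows, 19.2 CPM of ATMG00080 beside 0.875 and 2.17 at 15 and 17 DAF. Of ATMG00090 it had 47.5 CPM beside 7.88 and 1.45, which was the highest level of that row in any library. The effects of lec1-1 and of abi3-5 were also compared directly. In the difference between them 0.336% of all genes and 0 mitochondrial rows were called by edgeR, with 3 rows at an unadjusted p under 0.05. In the difference between fus3-3 and abi3-5, 0.28% of all genes and 0 rows were called, with 2 at an unadjusted p under 0.05, and DESeq2 was not run on either.

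**Figure D4:**
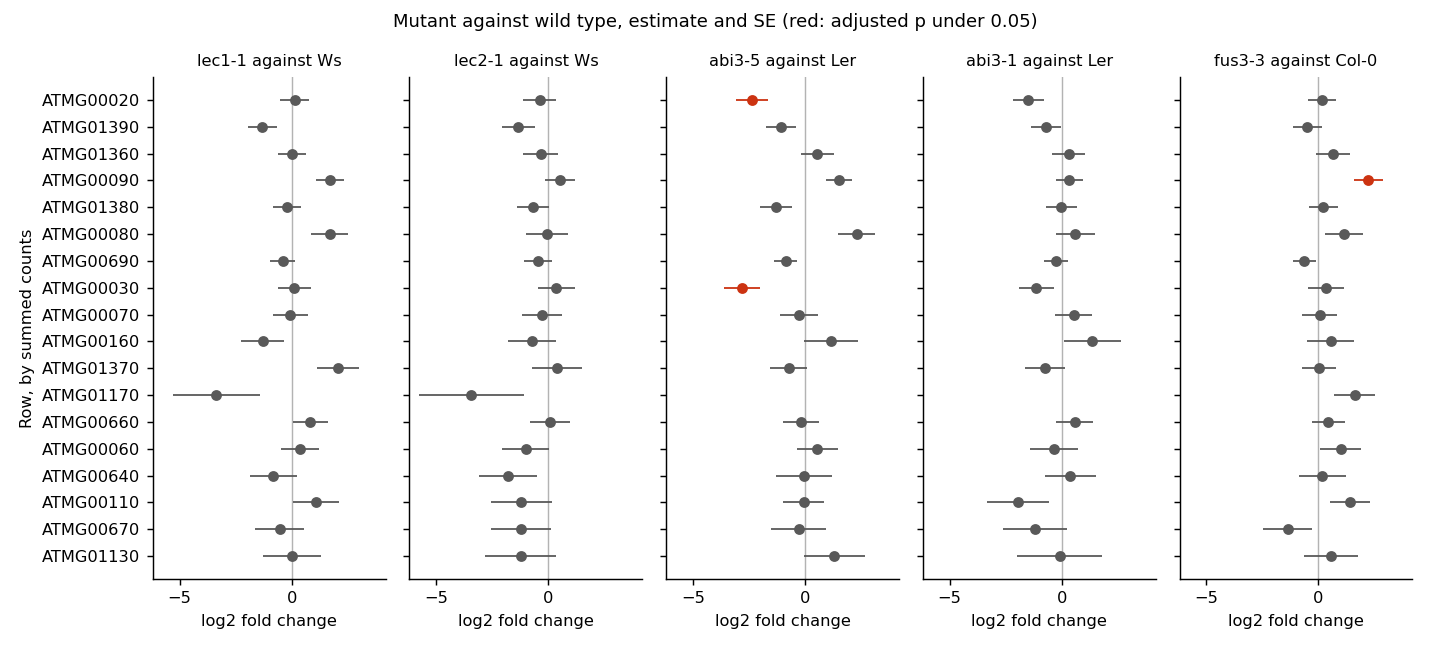
Log2 fold change with its SE for the 18 rows that passed the filter, ordered by summed counts, in each mutant against its wild type; red marks an adjusted p under 0.05 and a missing point a row at 0 in both groups. ATMG00020 and ATMG00030 are called lower in abi3-5 (-2.37 and -2.81) and ATMG00090 higher in fus3-3 (2.23).

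ATMG01170 had counts almost only in the Col-0 background, and most of them in fus3-3. It had 3, 7 and 3 counts in Col-0 and 25, 75 and 58 in fus3-3, 2 counts in Ws at 15 DAF, and 0 in the other 7 libraries of the Ws background and in all 9 libraries of the Ler background. Summed by background it had 171 counts in 24408788 (7.01 CPM) in Col-0 and fus3-3 and 2 in 26058159 in Ws, lec1-1 and lec2-1, a ratio of 91.3 (exact 95% interval 24.9 to 760, counting error only). Against the Ler background, with 0 of 23654302 counts, the level was at least 55.2-fold higher, taking a floor of 3 counts over the background. Of the 171 counts 158 were in fus3-3. Between the wild types alone there were 13 counts in Col-0, 2 in Ws and 0 in Ler, and the ratio of Col-0 to Ws was 6.68 (exact 95% interval 1.51 to 61.0). Between fus3-3 and Col-0 themselves its levels were 2.70, 7.94 and 11.7 against 1.50, 4.32 and 1.38 CPM on the TMM scale, and the log2 fold change of 1.61 (SE 0.92, adjusted p 0.247) did not pass, but by library totals, the scale of the ratios above, it was 2.66 and was called (adjusted p 0.0384). ATMG00040, singled out after its values were seen, had 25 counts in the Col-0 background and 15 in that of Ws, in 6 of 6 and 7 of 8 libraries, but 0 in the 9 Ler-background libraries, at least 8.08-fold and 4.54-fold less by the same floor. Ecotype was not a tested term, the libraries of a background share it with their genotypes, and the reference sequence is that of Columbia.

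**Figure D5:**
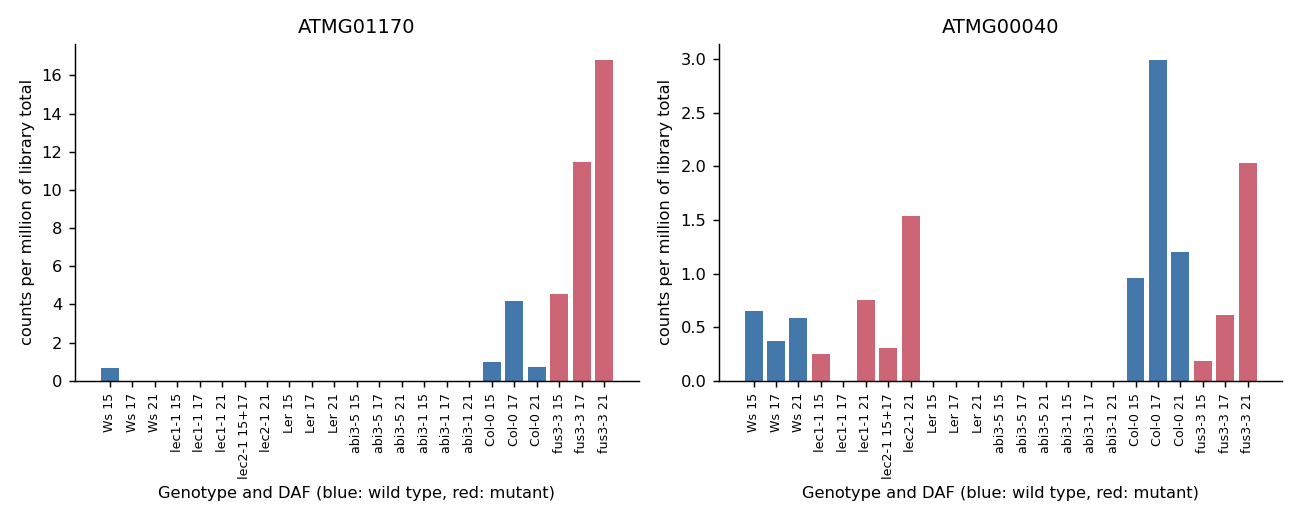
CPM of the library total for ATMG01170 (left) and ATMG00040 (right) in each library by genotype and DAF, wild types in blue and mutants in red. ATMG01170 has counts in all 6 Col-0 and fus3-3 libraries and in 1 other (Ws at 15 DAF), and ATMG00040 has none in the 9 libraries of the Ler background.

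Because most mitochondrial proteins are encoded in the nucleus, the nuclear genes of respiratory complexes, the ATP synthase and other mitochondrial proteins were read from the same fit, 67 of them tested. In lec1-1 15 were called higher and 2 lower, in fus3-3 16 and 2, in abi3-5 3 and 1, and in the contrast of intolerant with tolerant mutants 15 and 1. The share called was 25.4% in lec1-1 beside 23.7% of all genes, 26.9% in fus3-3 beside 19%, 5.97% in abi3-5 beside 7.99%, and 23.9% in the contrast beside 16.9%, so in lec1-1 and abi3-5 it was near the background. In lec2-1 and abi3-1 edgeR called 0, with 2 and 0 at an unadjusted p under 0.05, and DESeq2 called 0 in each. In wild types at 21 against 15 DAF it called 0 of 64 and DESeq2 called 2, and 11 had an unadjusted p under 0.05.

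The nuclear subunits of the ATP synthase, the complex that makes ATP from the proton gradient, held the most calls in lec1-1, fus3-3, abi3-5 and the contrast. Of 8, 6 rose in lec1-1 (23.7% of all genes called), 5 in fus3-3 (19%), 2 in abi3-5 (7.99%) and 6 in the contrast of intolerant with tolerant mutants (16.9%), and 0 fell. Their median log2 fold changes were 1.49, 1.70, 0.51 and 0.99, beside 0.03, 0.02, 0.05 and 0.01 over all genes. AT5G08670, a gene of the catalytic beta subunit, had 60.0, 44.8 and 66.2 CPM in Ws and 244, 310 and 343 in lec1-1. It rose there by 2.41 on the log2 scale (SE 0.40, adjusted p 0.000608) and by 2.61 (SE 0.40, adjusted p 0.000551) in fus3-3. The beta subunit genes AT5G08670, AT5G08680 and AT5G08690 are near-identical neighbours, so the split of reads between them is uncertain. MGP1 (AT2G21870), another ATP synthase subunit gene, rose by 1.63 (SE 0.34, adjusted p 0.00241) in lec1-1 and by 2.12 (SE 0.34, adjusted p 0.000686) in fus3-3. AAC1, an ADP/ATP carrier of the inner membrane, had 191, 114 and 179 CPM in Ws and 1373, 1068 and 818 in lec1-1. Its log2 fold change was 2.76 (SE 0.48, adjusted p 0.000768) in lec1-1, 1.99 (SE 0.47, adjusted p 0.0135) in abi3-5 and 2.92 (SE 0.48, adjusted p 0.000862) in fus3-3.

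The lists were not tested against each other. Of 11 complex I genes, 4 rose in lec1-1 and 3 in fus3-3, where 23.7 and 19% of all genes were called, led by GAMMACA3, a carbonic anhydrase-like subunit (1.68, SE 0.29, adjusted p 0.000792, in lec1-1). Of 9 genes of complex III and cytochrome c, 2 rose in each, among them RISP (AT5G13430), the Rieske iron-sulfur protein, with 36.5, 44.8 and 40.5 CPM in Ws and 122, 154 and 127 in lec1-1 (log2 fold change 1.73, SE 0.33, adjusted p 0.00157). In complex IV, COX6B rose in lec1-1 (1.96, SE 0.43, adjusted p 0.00326), in fus3-3 (1.53, SE 0.43, adjusted p 0.0182) and in intolerant against tolerant mutants (1.20, SE 0.32, adjusted p 0.0145), and COX5B-1 fell in lec1-1 (-1.40, SE 0.36, adjusted p 0.00967) and in fus3-3 (-2.28, SE 0.37, adjusted p 0.000849). Of 18 tested genes of mitochondrial transcription, DNA maintenance and RNA maturation or decay, edgeR called 0 in each mutant, with 0 at an unadjusted p under 0.05 in lec1-1, 2 in abi3-5 and 2 in fus3-3.

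SDH2-3, a seed-expressed gene of the iron-sulfur subunit of complex II (succinate dehydrogenase), was the lower call of every intolerant mutant in complex II. Its level was 126, 82.2 and 139 CPM in Ler, 105, 168 and 103 in abi3-1, and 3.40, 4.34 and 2.31 in abi3-5. The abi3-5 libraries were far below all the others. SDH2-3 fell in abi3-5 by 5.11 on the log2 scale (SE 0.51, adjusted p 5.57e-06), while its estimate in abi3-1 was 0.10 (SE 0.42, adjusted p 1). It also fell in lec1-1 (-1.75, SE 0.43, adjusted p 0.00698) and in fus3-3 (-1.59, SE 0.42, adjusted p 0.0144), and in lec2-1 the estimate was -0.57 (SE 0.47, adjusted p 0.908). In the contrast of intolerant with tolerant mutants it fell by 3.19 (SE 0.33, adjusted p 1.01e-05). The effect in abi3-5 differed from that in lec1-1 by 3.36 (SE 0.62, adjusted p 0.0199) and from that in fus3-3 by 3.51 (SE 0.62, adjusted p 0.0112). AOX2, an alternative oxidase gene, had at most 41.3 CPM and passed in no comparison, with log2 fold changes of 0.29 (SE 0.94) in lec1-1, -0.0002 in lec2-1 (no SE, which the ratio to F does not give near 0), -0.30 (SE 1.03) in abi3-5, 0.74 (SE 0.99) in abi3-1 and -0.62 (SE 0.94) in fus3-3. In these bulk samples fewer cells of a type and less RNA per cell cannot be told apart.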

How the data were processed

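For each genotype and day, pooled seed RNA gave 1 sample, which was amplified with the MessageAmp-II kit and barcoded for SOLiD sequencing, per the labels' protocols. The deposited table holds raw counts per locus in 24 columns, made by the authors against TAIR10, which the submitters' processing notes name with edgeR. The aligner, the counting rule and its use of strand are not given in the sources used here. The deposited normalized table was not used.

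Columns identical at every row entered once, which left 23 distinct libraries. Counts were filtered by filterByExpr (minimum count 10), scaled by TMM and fitted with edgeR 4.0.16 in R 4.3.3 (quasi-likelihood, genotype and day terms), and p-values were adjusted by Benjamini-Hochberg over all 16085 genes tested. SEs are the estimate over the root of F. Levels are counts per 1000000 of the library total times its TMM factor (CPM). The fit was tested on simulated counts with known changes in lec1-1. Against Ws it recovered 38 of 96 4-fold changes and 65 of 96 8-fold changes, all in the right direction. It made 6 false calls. Apart from these changes the simulated libraries all had the same mean profile, with no day or composition differences. They therefore do not test the scaling of the real libraries, whose TMM factors ran from 0.486 to 1.92. The p-values rest on the spread left between libraries after the genotype and day terms, estimated over all genotypes together. They do not measure the spread between separate seed batches. Alternatives were RLE, upper quartile and library total scaling, no filter, DESeq2 1.42.0, no day term, other days for doubtful libraries, and each library left out. Tests of the difference between mutants and the sum with nuclear copy rows were added after the data were seen. Copies were found as exact 50-base words in RefSeq TAIR10.1.

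Rows named are the 12 with the most counts, up to 4 called rows in each direction per comparison, up to 3 called nuclear genes per list, SDH2-3 and AOX2. The rows and lists were chosen with earlier results of these data known.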

Additional observations from a re-analysis of the deposited data

Results flagged for a closer look

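For some rows and genes every library of one mutant lay above the wild type of its day and every library of another mutant below its own. The lec2-1 library of 15 and 17 DAF was set against the mean of Ws at both days. Most of the lec2-1 and abi3-1 estimates are small, none of them passed the test, and the differences were not tested except where a test is named. They are among 5 mutants, of which lec1-1 and lec2-1 share the Ws libraries and abi3-5 and abi3-1 the Ler libraries, and lec2-1 has 2 libraries. ATMG00030 had a log2 fold change of 0.36 in lec2-1 and of -2.81 in abi3-5.

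Among the nuclear genes, AAC2 (AT5G13490), an ADP/ATP carrier gene, had 1.07 in lec1-1 and 2.21 in fus3-3, but -0.42 in lec2-1. RISP (AT5G13430) had 1.73 and 1.68 in lec1-1 and fus3-3 and -0.063 in lec2-1, where the library of 15 and 17 DAF had 37.9 CPM and Ws had 36.5 and 44.8 CPM at those days. AT5G08690, a gene of the ATP synthase beta subunit, had 1.85 in lec1-1, 0.49 in lec2-1, 1.53 in abi3-5 and 2.05 in fus3-3, but -0.43 in abi3-1. SDH3-1 (AT5G09600), a gene of a membrane subunit of succinate dehydrogenase, had 1.58 in fus3-3 and -0.60 in lec2-1. QCR7 (AT4G32470), a gene of complex III, had 0.95 in lec1-1, -0.24 in lec2-1 and -0.51 in abi3-1. The contrast of intolerant with tolerant mutants tests lec1-1 against lec2-1 and abi3-5 against abi3-1 together. By edgeR it called AAC2 (1.07, SE 0.29, adjusted p 0.015), RISP (1.12, SE 0.25, adjusted p 0.0056), AT5G08690 (1.66, SE 0.31, adjusted p 0.00169) and QCR7 (0.91, SE 0.31, adjusted p 0.0491), where 16.9% of all genes were called. It did not call SDH3-1 (0.61, SE 0.34, adjusted p 0.233) or ATMG00030 (-0.96, SE 0.57, adjusted p 0.258). The contrast uses the same libraries by which these genes were picked, so its calls are no separate support for the pattern.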

How the results depend on the processing

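In lec1-1 the number of mitochondrial rows called was 0. It was 1 with RLE scaling, upper quartile scaling, no filter, DESeq2 or the Col-0 libraries exchanged. Of all genes 23.7, 23.4, 14.4, 27 and 27.8% were called with these. With library totals the number of rows was 3, where 40.8% of all genes were called. In intolerant against tolerant mutants it was 0, and 1 with RLE scaling, upper quartile scaling or no filter, 2 with DESeq2 or the Col-0 libraries exchanged, and 4 with library totals. In fus3-3 the number of rows was 1, and 3 with library totals, where 36.7% of all genes were called. In abi3-5 library totals gave 3 rows called higher in place of the 2 lower, where 49.9% of all genes were called. Without the day term (no replicate block) the 2 calls of abi3-5 and the 1 of fus3-3 both became 0, where 4.45 and 11.6% of all genes were called. In wild types the 0 calls became 1 with the Col-0 libraries exchanged or with Ws and Ler alone, where 35.6 and 21.4% of all genes were called. Leaving out each library gave 0 to 2 rows in abi3-5, 0 or 1 in fus3-3, 0 to 3 in intolerant against tolerant mutants, and 0 or 1 in wild types, where the library that decides is Col-0 at 21 DAF. Of all genes 2.82 to 9.38, 7.29 to 19.2, 5.01 to 18.2 and 0 to 14.2% were called in these fits.

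With DESeq2 7 nuclear genes were called in abi3-5 and 2 in wild types, beside 12.1 and 5.01% of all genes. With library totals 36 were called in lec1-1, 48 in abi3-5, 37 in fus3-3 and 41 in intolerant against tolerant mutants. On that scale 40.8, 49.9, 36.7 and 34% of all genes were called. Scaling by library totals moved the median log2 fold change of all genes to 1.21, 1.49, 1.14 and 0.83 in these 4 comparisons.

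The ratio of mean mitochondrial shares was 2.03 for lec1-1 over Ws, and 1.27 without storage proteins in the denominator and 0.918 with TMM scaling. For lec2-1 over Ws it was 1.13, and 0.876 without storage proteins, 0.687 with TMM scaling and 1.32 without ATMG00020, ATMG01390 and ATMG01380. For abi3-5 over Ler it was 0.880, and 0.485 without storage proteins, 0.291 with TMM scaling and 2.96 without those 3 rows. For abi3-1 over Ler it was 0.767, and by the same 3 changes 0.579, 0.496 and 1.77. For fus3-3 over Col-0 it was 2.53, and 1.42, 1.14 and 3.95. Leaving out each library gave 1.67 to 2.83 for lec1-1, 0.780 to 1.58 for lec2-1, 0.721 to 1.52 for abi3-5, 0.492 to 1.32 for abi3-1 and 1.61 to 3.23 for fus3-3. The median part of the leading row was 77.9%, and 31.3% without those 3 rows. The cause was not tested where a value moved. Adding the rows of the nuclear copy moved no ratio by more than its spread over days.

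Of 1143 values of single rows under the alternatives, 1025 stayed called, or stayed uncalled within 1 SE of the main estimate. Of the others, 30 gained and 15 lost a call, 73 stayed uncalled but moved further, and 0 changed sign when called. With 1 library per genotype and day, a change on 1 day only has little power, and rows with few counts have wide errors. The groups share days and no other replicate number, so the day term is the block, and the values without it are those given above.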
